A study of Mus musculus with 4 samples.

Results

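The miR-378 family was examined in small RNA libraries of MIN6 cells and of the exosomes these cells shed. MIN6 is a mouse insulinoma line, a tumour-derived line of pancreatic beta cells, and exosomes are small membrane vesicles released into the medium. The members were taken by name from the mature miRNA table: mmu-miR-378a-3p, mmu-miR-378a-5p, mmu-miR-378b, mmu-miR-378c and mmu-miR-378d, which are 5 of the 1915 mature miRNAs listed. The groups were 2 libraries labelled MIN6-cells and 2 labelled MIN6-derived exosomes, all from cells kept in medium with exosome-depleted fetal bovine serum, penicillin-streptomycin and β-mercaptoethanol. Both groups come from the same line, no treatment separated them, and the exosomes were isolated from pooled conditioned medium of several flasks. The labels do not say whether libraries of a group came from separate cultures, so a p-value measures only the spread between these libraries.

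A miRNA is cut from a hairpin precursor, and either arm of the hairpin, called 5p or 3p after its end, can be loaded onto an Argonaute protein to repress messenger RNAs that match its seed, bases 2 to 8. miR-378a is encoded within Ppargc1b, the gene of the transcriptional coactivator PGC-1β, which controls mitochondrial and lipid metabolism. Its arms are known from muscle, liver and fat for effects on mitochondrial energy use, and miR-378b, c and d come from separate genes with a sequence much like that of miR-378a-3p.

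The mature sequences of miR-378b, c and d are shown because they explain which rows of the table can share reads. They were taken from RefSeq (GRCm38.p6), where these 3 members were matched, and each equals the sequence in the deposited files. Each is written 5′ to 3′ with the seed in capitals.
miR-378b: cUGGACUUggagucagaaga
miR-378c: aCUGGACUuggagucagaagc
miR-378d: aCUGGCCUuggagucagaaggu

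miR-378b lies at chr11:88352839-88352858 on the plus strand, miR-378c at chr14:46954905-46954925 on the minus strand and miR-378d at chr10:126710355-126710376 on the minus strand. Counted from the 5′ end of miR-378c, miR-378d differs by A6C, within the seed, and by C21G, and at 22 bases against 21 it is longer at its 3′ end. miR-378b lacks the first base of miR-378c and differs from it by C21A, so its seed is shifted by 1 base. miR-378c has the seed of miR-378a-3p, whereas miR-378b and miR-378d each have a seed held by no other member. None of the other mature miRNAs among 1679 in RefSeq had the seed of any member.

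The rows are therefore not fully separate measurements. miR-378a-3p shared an unbroken run of 20 bases with miR-378c, of 19 with miR-378b and of 15 with miR-378d, while miR-378a-5p shared no run longer than 4 bases with any other member. A trimmed read could match more than 1 of the 3p-type rows, as miR-378a-3p, b, c and d are called here, so how their counts divide among paralogues is uncertain. The names are by sequence, not by arm, since miR-378b lies towards the 3′ end of its hairpin and miR-378c and miR-378d lie towards the 5′ end of theirs.

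The library totals set the precision. The cell libraries held 2930217 and 2564068 mature counts, whereas those of exosomes held 47447 and 31409. A count of 0 allows up to 3 counts, which is 1.02 and 1.17 RPM in cells against 63.2 and 95.5 RPM in exosomes, where RPM is the count scaled by the library's mature total. Of the listed miRNAs, 1101 had a count and 438 passed the filter on low counts, among them all 5 members. Compositions differed strongly between the groups, with scaling factors by the trimmed mean of M values (TMM) of 0.660 and 0.612 in cells and 1.80 and 1.38 in exosomes, so the fold changes from edgeR differ from the ratios of RPM. They are smaller for the 3p-type members and larger for miR-378a-5p, whose ratio of mean RPM, cells over exosomes, was 1.96 against a fold of 4.78 by edgeR. Over all tested miRNAs the median log2 fold change, exosomes over cells, was -0.75 with this scaling and 0.61 when libraries were scaled by their totals alone.

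The 4 3p-type members had higher levels in exosomes than in cells and miR-378a-5p had a lower one. By the quasi-likelihood test of edgeR, with p-values adjusted over all tested miRNAs by the Benjamini-Hochberg method, miR-378a-3p, b and c rose, miR-378a-5p fell and miR-378d did not pass. Of all tested miRNAs, 23.7% were called higher and 29.5% were called lower in exosomes. Normalised counts of the groups did not overlap for any member, with exosomes above cells for the 3p-type members, as for 33.3% of all tested miRNAs, and below cells for miR-378a-5p, as for 51.8%. Calls in either direction were thus common in this comparison.

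**Figure D1:**
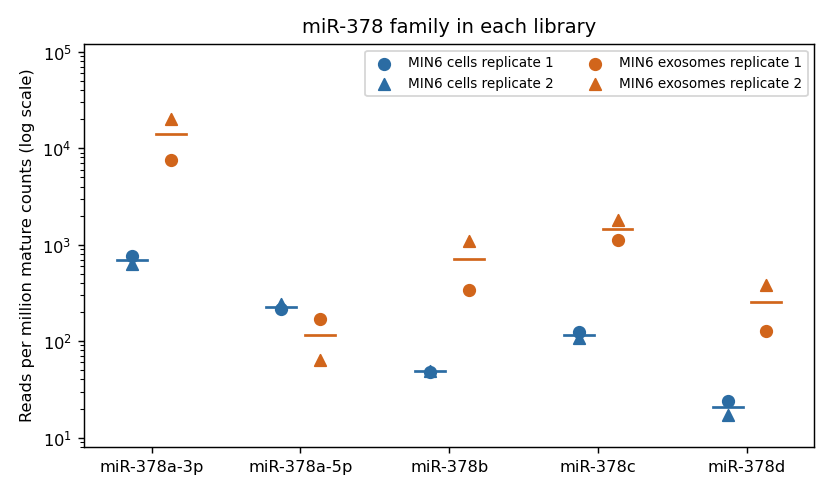
Level of each member in RPM (log axis) in 2 libraries of MIN6 cells (blue) and 2 of MIN6 exosomes (orange), where circles are replicate 1, triangles are replicate 2 and lines are group means. Both exosome libraries lie above both cell libraries for miR-378a-3p, b, c and d and below them for miR-378a-5p.

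miR-378a-3p, the most abundant member in every library, had 2251 and 1623 counts in cells and 361 and 632 in exosomes. These equal 768 and 633 RPM in cells and 7608 and 20122 RPM in exosomes. Both exosome libraries were far above both cell libraries, and they differed 2.64-fold from each other. Ranked by level among all miRNAs, it was at 64 and 75 in cells and at 22 and 12 in exosomes. The ratio of mean RPM was 19.8, and it was 10.9 for exosome replicate 1 and 28.7 for exosome replicate 2 against the cell mean. With TMM scaling the log2 fold change was 3.11 (SE 0.76, adjusted p = 0.0317 by edgeR), which is 3.85 above the median over all miRNAs tested. Without exosome replicate 1 the log2 fold change was 4.11, and without exosome replicate 2 it was 2.05.

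miR-378a-5p, the other arm of the same hairpin, had 630 and 614 counts in cells and 8 and 2 in exosomes. These equal 215 and 239 RPM in cells and 169 and 63.7 RPM in exosomes. The exosome libraries lay below the cell libraries, and the count of exosome replicate 2 is below the 3 counts that 0 allows. The log2 fold change was -2.26 (SE 0.49, adjusted p = 0.0239 by edgeR). With scaling by library totals alone it was -0.89, with an adjusted p of 0.269, so this call depends on the scaling.

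miR-378c, the paralogue with the seed of miR-378a-3p, had 364 and 273 counts in cells and 53 and 57 in exosomes. These equal 124 and 106 RPM in cells and 1117 and 1815 RPM in exosomes. The exosome libraries were higher and closer to each other than for the other 3p-type members, at a ratio of 1.62. The log2 fold change was 2.41 (SE 0.52, adjusted p = 0.0236 by edgeR). Leaving out exosome replicate 1 gave 3.24, and leaving out exosome replicate 2 gave 1.88.

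miR-378b, whose seed is shifted by a base, had 139 and 127 counts in cells and 16 and 34 in exosomes. These equal 47.4 and 49.5 RPM in cells and 337 and 1082 RPM in exosomes. The cell libraries were nearly equal and the exosome libraries differed 3.21-fold. The log2 fold change was 2.63 (SE 0.78, adjusted p = 0.0489 by edgeR), just past the threshold. Leaving out exosome replicate 1 gave 3.74 and leaving out exosome replicate 2 gave 1.40. Leaving out the most abundant miRNAs of each group gave 2.48 with an adjusted p of 0.0585.

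miR-378d, the least abundant member in cells, had 70 and 44 counts in cells and 6 and 12 in exosomes. These equal 23.9 and 17.2 RPM in cells and 126 and 382 RPM in exosomes. The exosome libraries were above the cell libraries, but they differed 3.02-fold. The log2 fold change was 2.30 (SE 0.73) with an adjusted p of 0.0574 by edgeR, just short of the threshold. It passed with RLE scaling (adjusted p = 0.0434), upper quartile scaling (0.0275), scaling by totals (0.0165) and the replicate block (0.0212) in edgeR, and with DESeq2 (0.0184). With no filter on low counts it did not pass (log2 fold change 0.99, adjusted p = 0.376 by edgeR). Nor did it without the most abundant miRNAs of each group (2.14, adjusted p = 0.0778 by edgeR). It was 3.47 without exosome replicate 1, with an adjusted p of 0.000838, and 1.23 without exosome replicate 2. The differences in fold change between the paralogues were not tested.

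**Figure D2:**
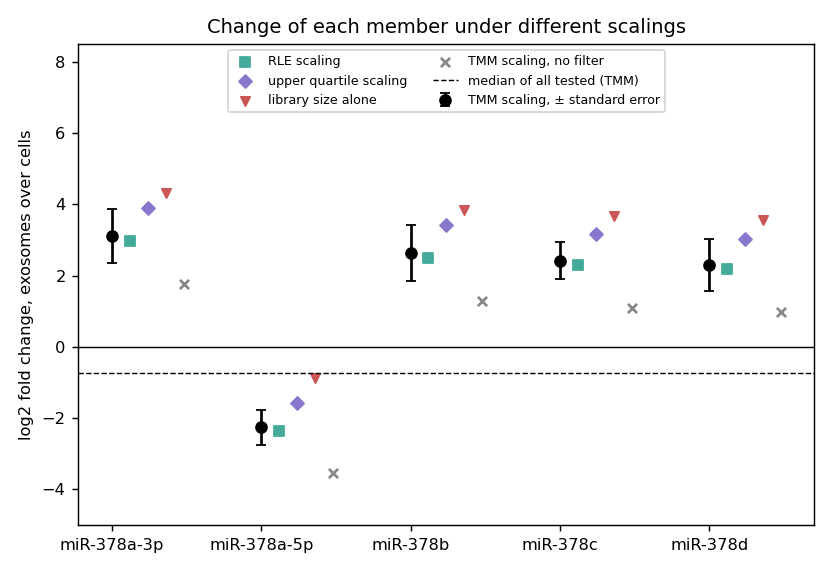
Log2 fold change of each member, exosomes over cells, by edgeR with TMM scaling (black, bars are ± 1 standard error), with other scalings and with no filter on low counts, beside the median over all miRNAs tested (dashed, -0.75). The 3p-type members lie above 0 and miR-378a-5p below 0 under each scaling drawn, and the sizes shift together with the scaling.

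These calls rest on having both cell libraries. Without cell replicate 1, the log2 fold changes were 2.64 for miR-378a-3p, -3.12 for miR-378a-5p, 2.02 for miR-378b and 1.89 for miR-378c, with adjusted p-values by edgeR of 0.0899, 0.110, 0.300 and 0.268. Without cell replicate 2, they were 2.59, -2.74, 2.31 and 1.90, with adjusted p-values of 0.109, 0.168, 0.262 and 0.284. No member was called in either fit, which tested 238 and 239 miRNAs, and each fit assumed that the lone cell library varies as the exosome libraries do. No direction changed. With no filter on low counts, miR-378a-3p, b and c also missed the threshold, at log2 fold changes of 1.76, 1.30 and 1.08. miR-378d stayed short of it there, at 0.99.

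Since the 3p-type rows can share reads, they were also joined. The sum of miR-378a-3p, b, c and d had a log2 fold change of 3.04 (SE 0.75, adjusted p = 0.0330 by edgeR), and taking only the largest of the 4 rows gave 3.14 (adjusted p = 0.0317). The joined row carries no more than the member rows do, because miR-378a-3p made up most of it in each library.

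The share of all mature counts on the family was 0.118% (95% Wilson interval 0.114 to 0.122) and 0.105% (0.101 to 0.109) in cells. In exosomes it was 0.936% (0.853 to 1.03) and 2.35% (2.18 to 2.52). The means were 0.111% ± 0.0094 in cells and 1.64% ± 0.998 in exosomes (SD, n = 2 each), and the exosome libraries lay above the cell libraries while differing widely from each other. Without exosome replicate 2 the difference of means was 0.825 percentage points, and with both exosome libraries it was 1.53. The two-sided exact permutation test gave p = 0.333, the smallest p that 2 against 2 libraries allow. Among 6 comparisons of shares, this and those below, the adjusted value was 0.333 as well. The intervals cover counting error only, since amplified reads without molecular identifiers are not independent molecules.

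The hairpin tables, which the choice of members did not use, gave a smaller difference. Of all hairpin counts, the 4 hairpins mir-378a, b, c and d took 0.0716% and 0.0648% in cells and 0.327% and 0.582% in exosomes. The exosome libraries were again higher, and the difference of means was 0.387 percentage points against 1.53 over mature counts. The count on each hairpin equalled the sum of its mature rows in every library, apart from 1 read of mir-378a in exosome replicate 2 that lay on neither arm. The hairpin share is thus no separate measurement of the family, and the smaller difference comes from the totals. All hairpin counts came to 4822504 and 4136063 in cells and 135622 and 126752 in exosomes.

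The arms of mir-378a moved apart between the groups. In cells the 5p arm took 21.9% of the 2881 arm counts of replicate 1 (95% Wilson interval 20.4 to 23.4) and 27.4% of the 2237 of replicate 2 (25.6 to 29.3). In exosomes it took 2.17% of 369 arm counts (1.10 to 4.22) and 0.315% of 634 (0.0866 to 1.14). There were thus 3.57 and 2.64 3p counts for each 5p count in cells and 45.1 and 316 in exosomes. The means of the 5p share were 24.7% ± 3.95 and 1.24% ± 1.31 (SD, n = 2 each), a difference of -23.4 percentage points with no overlap between groups, at p = 0.333 by the two-sided exact permutation test. Both arms were counted in the same library, so library scaling does not enter this ratio. Reads of miR-378b, c or d could enter the count of miR-378a-3p but not that of miR-378a-5p. Their part in the ratio was not tested.

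**Figure D3:**
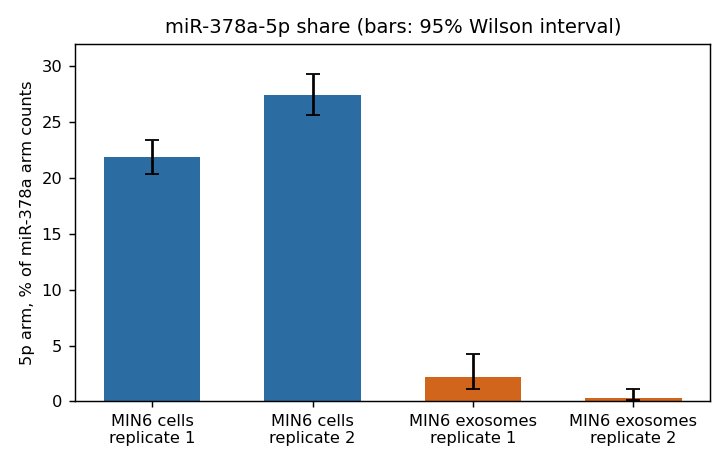
Share of the 5p arm in the counts of both mir-378a arms, in percent, in each library, with 95% Wilson intervals for counting error. The blue bars of cells reach 21.9% and 27.4%, and the orange bars of exosomes reach 2.17% and 0.315%.

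To set this against other hairpins, the log2 ratio of 3p to 5p counts was tested with limma over 48 hairpins that had a count on both arms in every library. For mir-378a the ratio was higher in exosomes by 5.08 on the log2 scale (SE 1.04, adjusted p = 0.0338 by limma). Among these 48 this was the second largest increase after that of mir-125a. The ranking leaves out hairpins with an arm at 0 in any library, and 210 hairpins passed the filter on low counts. The exosome ratios of mir-378a rest on 8 and 2 counts of the 5p arm. The ratio rose for 5 hairpins, which is 10.4% of those tested, and fell for 17, with a median change of -0.87. This test was added after the values of mir-378a had been seen. Its call was lost without cell replicate 1 (5.30, adjusted p = 0.176) and without cell replicate 2 (4.86, adjusted p = 0.169). Without exosome replicate 1 the change was 6.36 and without exosome replicate 2 it was 3.79. In those fits the spread within a group came from the cell libraries alone.

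**Figure D4:**
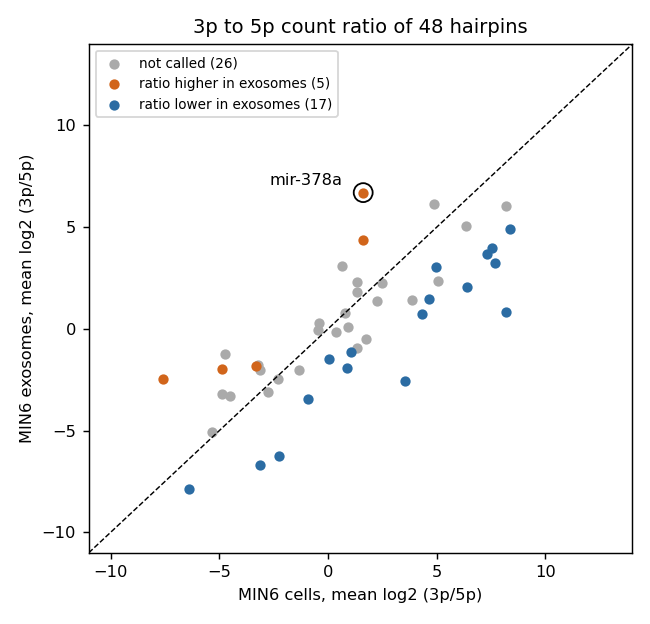
Mean log2 ratio of 3p to 5p counts in MIN6 cells (horizontal) and MIN6 exosomes (vertical) for 48 hairpins, with the line of equal ratios dashed. The ringed point, mir-378a, lies above the line at 1.62 in cells and 6.70 in exosomes, one of the 5 hairpins called higher, while 17 were called lower.

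Among the 3p-type counts, miR-378a-3p took 79.7% and 78.5% in cells and 82.8% and 86.0% in exosomes. miR-378c took 12.9% and 13.2% in cells and 12.2% and 7.76% in exosomes. The exosome library with the lowest miR-378c share was replicate 2, and its interval of 6.03 to 9.92% lay below both cell values. miR-378b took 4.92% and 6.14% in cells and 3.67% and 4.63% in exosomes. miR-378d took 2.48% and 2.13% in cells and 1.38% and 1.63% in exosomes. Each of b, c and d had its lower values in exosomes, with intervals that mostly overlapped, and each comparison gave p = 0.333 by the exact permutation test, the smallest possible.

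**Figure D5:**
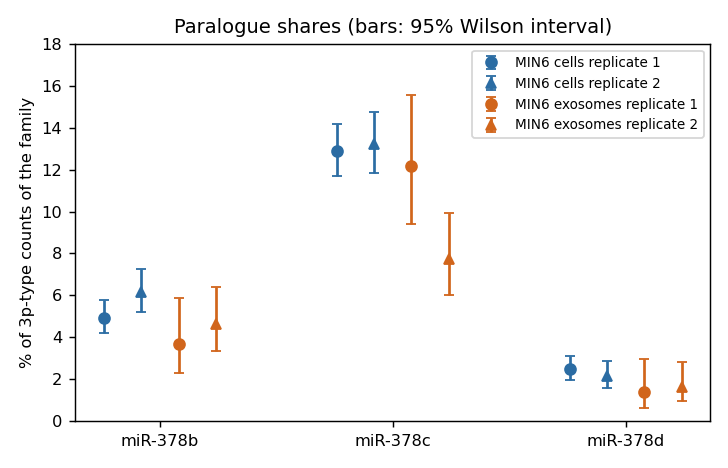
Share of miR-378b, c and d in the counts of the 4 3p-type members, in percent, in each library, with 95% Wilson intervals for counting error. The lowest miR-378c share, 7.76%, is in exosome replicate 2, and the other intervals of exosomes and cells largely overlap.

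The genes lie on separate chromosomes. In GRCm38, Mir378b (chr11:88352773-88352864, plus strand) lies opposite an intron of Msi2 and Mir378c (chr14:46954830-46954928, minus strand) opposite an intron of Samd4, while Mir378d (chr10:126710282-126710391, minus strand) overlaps no other annotated gene. Each mature sequence occurred in the transcripts of 1 gene only, its own, among 141767 annotated transcripts.

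Mir378a (chr18:61397835-61397900, minus strand) lies in an intron of Ppargc1b on the same strand. The annotation also places a miRNA gene, Gm25301, over it on the opposite strand.

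Over the 4 libraries, the miRNAs with a pattern of log2 normalised level most like that of miR-378a-3p, each centred on its own mean, were miR-7033-5p, miR-669f-3p and miR-3968. Their root mean square differences from it were 0.140, 0.149 and 0.150 log2 units. miR-378b followed at rank 4 (0.309), miR-378c was at rank 10 (0.365) and miR-378d at rank 13 (0.397). miR-378a-5p was at rank 261. The likeness is a description over 4 libraries of 2 groups, and miR-669f-3p rests on 7 and 4 counts in cells and 2 and 3 in exosomes.

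Other miRNAs with known roles in lipid, glucose or energy metabolism were read from the same fit. Of 19 listed, 15 had a count and 10 were tested, of which 2 rose, 3 fell and 5 did not pass, close to the 23.7% higher and 29.5% lower among all tested miRNAs, so the counts say nothing particular to the list. With scaling by totals 2 rose and 1 fell. The median log2 fold change was -1.53 beside -0.75 for all tested miRNAs. miR-122-5p, the main miRNA of liver and a regulator of lipid metabolism, had 13 and 21 counts in cells and 79 and 62 in exosomes. Its log2 fold change was 6.87 (SE 0.64, adjusted p = 0.0065 by edgeR). It passed the filter on low counts only through the exosome libraries, so a call as higher was nearly fixed in advance. miR-143-3p, abundant in smooth muscle and fibroblasts, had 37 and 21 counts in cells and 39 and 19 in exosomes and rose by 4.78 on the log2 scale (SE 0.42, adjusted p = 0.0065 by edgeR). Both were high in both exosome libraries relative to depth.

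miR-27b-3p, a regulator of fat cell differentiation, had 1213 and 1034 counts in cells and 5 and 0 in exosomes and a log2 fold change of -4.14 (SE 0.89, adjusted p = 0.0237 by edgeR), which was -2.76 with an adjusted p of 0.0763 when scaled by totals. miR-33-3p and miR-33-5p, from an intron of the sterol regulator gene Srebf2, were at 0 in both exosome libraries. Their cell counts were 34 and 29 for miR-33-3p and 3 and 10 for miR-33-5p, levels below what a count of 0 allows in exosomes, so no fold is given. miR-103-3p and miR-107-3p, from introns of pantothenate kinase genes, did not pass, with log2 fold changes of -1.22 (adjusted p = 0.163) and 0.14 (adjusted p = 0.750) by edgeR. miR-103-3p had 942 and 822 counts in cells and 27 and 4 in exosomes, and miR-107-3p had 176 and 145 in cells and 9 and 4 in exosomes. With scaling by totals the log2 fold change of miR-103-3p was 0.17, so its sign depends on the scaling.

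Marker miRNAs of cell types were read in the same libraries. The beta cell markers miR-375-3p (26702 and 25335 counts in cells, 507 and 222 in exosomes) and miR-7a-5p (78620 and 67072 in cells, 394 and 32 in exosomes) were counted in every library. miR-184-3p had 14086 and 9421 counts in cells and 381 and 144 in exosomes. miR-141-3p had 1005 and 968 in cells and 9 and 0 in exosomes, and miR-200a-3p had 783 and 678 in cells and 2 and 0 in exosomes. Of these 5, miR-375-3p, miR-7a-5p and miR-200a-3p fell by edgeR with TMM scaling, as did 29.5% of all tested miRNAs. miR-141-3p and miR-184-3p did not pass. miR-375-3p was not called with RLE scaling (adjusted p = 0.0513 by edgeR) or upper quartile scaling (0.223), whereas miR-141-3p was called with RLE scaling (0.0342). With scaling by totals the calls of miR-375-3p (log2 fold change -0.09, adjusted p = 0.900) and miR-7a-5p (-2.49, adjusted p = 0.129) were lost, and miR-184-3p changed sign (0.58, not called). In RPM, miR-375-3p stood at 9113 and 9881 in cells and 10686 and 7068 in exosomes, so its groups overlapped. The summed level of the 5 was 41361 and 40355 RPM in cells and 27252 and 12672 RPM in exosomes.

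Muscle, where miR-378 is abundant, was represented by 1 of its 5 markers. miR-133a-3p, miR-206-3p, miR-499-5p and miR-208b-3p were at 0 in all 4 libraries, and miR-1a-3p had 47 and 29 counts in cells and 3 and 0 in exosomes.

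Markers of blood, liver and mesenchymal cells had higher levels in exosomes than in cells, as had the 3p-type members. The blood markers were miR-451a, with 0 and 0 counts in cells and 33 and 2 in exosomes, miR-223-3p, with 1 and 0 and then 17 and 12, miR-142a-3p, with 0 and 0 and then 14 and 1, and miR-144-3p, with 0 and 0 and then 4 and 0. Of these 4, 3 were tested and called higher, beside 23.7% of all tested miRNAs. These 3 passed the filter on low counts only through the exosome libraries, so a call as higher was nearly fixed in advance. The summed level of the 4 was 0.341 and 0 RPM in cells and 1433 and 478 RPM in exosomes. The mesenchymal markers were miR-143-3p, miR-145a-5p (3 and 1 counts in cells, 17 and 19 in exosomes) and miR-199a-3p (2 and 2 in cells, 6 and 6 in exosomes). All 3 were called higher, but miR-145a-5p and miR-199a-3p also passed the filter only through the exosome libraries. The summed level of the 3 was 14.3 and 9.36 RPM in cells and 1307 and 1401 RPM in exosomes. The liver marker miR-122-5p stood at 4.44 and 8.19 RPM in cells and 1665 and 1974 RPM in exosomes. It too passed the filter only through the exosome libraries. Of the exosome libraries, replicate 2 had the higher level of miR-378a-3p and of the liver marker. Replicate 1 had the higher level of each blood marker except miR-223-3p. The mesenchymal markers were split, with miR-143-3p higher in replicate 1 (822 against 605 RPM) and miR-145a-5p and miR-199a-3p higher in replicate 2. The part of these other cell types in the levels of the members was not tested, and the depth of the exosome libraries, lower by a ratio of 69.7 between mean totals, cannot be told apart from the group.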

How the data were processed

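Small RNA of MIN6 cells and MIN6-derived exosomes was converted to libraries by polyadenylation and template switching and sequenced on an Illumina platform. The deposited read counts per mature miRNA (raw counts) and the RPM values were made by the authors, whose processing notes name cutadapt, Bowtie, the mm10 build and miRBase 21; the RPM values equal the count divided by the library's mature total. How reads matching several miRNAs were counted is not given in the sources used here. The study's methods name different quality instruments for exosome and cell libraries, which cannot be told apart from the group.

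Counts were tested with edgeR 4.0.16 in R 4.3.3 (filterByExpr with a minimum count of 10, TMM, quasi-likelihood test without covariates, Benjamini-Hochberg adjustment, threshold 0.05). The SE is the log2 fold change divided by the square root of F. Arm ratios were tested with limma 3.58.1 on log2((3p + 0.5)/(5p + 0.5)). This test was added after the data were seen, and 4 forms of it were run before 1 was chosen. Over every hairpin passing the filter, edgeR with the library as a block gave mir-378a an adjusted p of 3.48e-16, limma 0.0433 and limma with a trend 0.0439. The form given, limma over hairpins counted on both arms in every library, gave 0.0338, the smallest of the limma forms. In data simulated with known changes it made fewer false calls than limma over every hairpin, but without any change it made a few where the other forms made none. edgeR made none in any simulation and was kept as an alternative because its p was so much smaller. The simulated ratios varied between libraries by a fixed amount not taken from the data. The mir-378a ratios of the exosome libraries, 45.1 and 316, lay far apart. The simulations therefore cannot show how far the p of edgeR holds for mir-378a. The choice was thus made with the p-values known. In simulated data the main test also made more false calls in a run than its threshold implies. Shares carry 95% Wilson intervals and exact permutation tests. Hairpins were folded with RNAfold 2.7.2, and loci are from GENCODE for GRCm38, the assembly of mm10. Replicates differed by more than counting noise, with a chi-square per degree of freedom of 10.6 in cells and 22.6 in exosomes.

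Members and lists were chosen with earlier results of these data known. Named were the 5 members, the 2 largest and 2 smallest log2 fold changes of the metabolic list with its intronic miR-33-5p, miR-103-3p and miR-107-3p, the 3 miRNAs nearest in pattern to miR-378a-3p, and all markers. Alternatives were RLE, upper quartile and total scaling, DESeq2 1.42.0, edgeR's exactTest at a fold of 2 and unadjusted p of 0.05, other filters, the replicate block, joined rows and each library left out.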

Additional observations from a re-analysis of the deposited data

How the results depend on the processing

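No member and no arm ratio changed direction under the alternatives run. The balance of all calls did so with scaling by totals, upper quartile scaling and the replicate block. The median of all tested miRNAs changed sign only with scaling by totals (from -0.75 to 0.61). miR-378d passed the threshold with RLE scaling (log2 fold change 2.19), scaling by totals (3.56), upper quartile scaling (3.02), DESeq2 (2.25), exactTest (2.34) and the replicate block (2.20). miR-378a-5p missed it with scaling by totals (-0.89). With no filter, miR-378a-3p (1.76), b (1.30) and c (1.08) missed it, and miR-378b missed it without the most abundant miRNAs (2.48). miR-378d stayed short of it in both of these settings (0.99 and 2.14). Calls lower in exosomes numbered 30 with scaling by totals and 202 with no filter, against 129; with at least 10 counts in every library there were 37 higher and 40 lower calls. Calls higher made up 44.6% of all calls with TMM, 82.0% with scaling by totals, 57.6% with upper quartile scaling and 51.8% with the replicate block. Metabolic miRNAs called lower numbered 1 with scaling by totals, 5 with exactTest, 6 with no filter and 1 with at least 10 counts in every library. Hairpins with a higher 3p to 5p ratio numbered 14 with edgeR and 22 by limma over every hairpin passing the filter, with or without a trend; mir-378a was called in each. The cause of these shifts was not tested.

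With each library left out in turn, the log2 fold change ranged from 2.05 to 4.11 for miR-378a-3p, -3.12 to -1.82 for miR-378a-5p, 1.40 to 3.74 for miR-378b, 1.88 to 3.24 for miR-378c and 1.23 to 3.47 for miR-378d, and the mir-378a arm ratio from 3.79 to 6.36. Calls ranged from 46 to 115 higher and 56 to 162 lower, metabolic calls from 1 to 2 higher and 3 to 5 lower, and hairpins with a higher ratio by limma from 0 to 17. The fewest calls higher came without either cell library. There limma called 0 hairpins higher, with 2 at an unadjusted p under 0.05 in each fit, and edgeR called 3 without cell replicate 1 and 2 without cell replicate 2.

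The replicate block gave miR-378a-3p a log2 fold change of 2.85 and, beside miR-378d, changed no call of a member. The labels do not say whether same-numbered libraries belong together. Their deviations from the group means correlated at 0.194 across the tested miRNAs. Depth limits the exosome values: below 63.2 and 95.5 RPM a miRNA could go uncounted.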

Other observations

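The hairpins of the family differ in predicted folding. Among 895 hairpins of the deposited tables, mir-378a had a minimum free energy of -38.5 kcal/mol over 66 bases, -0.583 per base, and 94.3% of hairpins were less stable per base. The values were -0.338 per base for mir-378b, -0.273 for mir-378c and -0.318 for mir-378d, with 19.0%, 5.47% and 13.2% of hairpins less stable. Of the mature bases, 18 of 21 of miR-378a-3p and 20 of 22 of miR-378a-5p were paired in the predicted fold, against 15 of 20 for miR-378b, 15 of 21 for miR-378c and 13 of 22 for miR-378d. The deposited table gives a family label, mir-378, to miR-378a-3p, miR-378a-5p and miR-378b and none to miR-378c and miR-378d.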
